A study of Mus musculus with 9 samples.

Results

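Transcripts of the G2/M and mitotic machinery were described across 3 sorted mouse bone marrow populations, each measured on 3 Affymetrix arrays. The set was named gene by gene and covers cyclins, mitotic kinases, the spindle checkpoint, kinetochores, kinesins, spindle assembly factors, cytokinesis factors and chromosome condensation factors. Of its 42 genes, 41 were measured by a probe set with a single gene symbol, out of 18193 genes so measured in all, and Ccnb1 was not analysed here. Each gene is represented by its probe set with the highest mean over the 9 arrays, which was the sole probe set for 13 of the genes and 1 of several for 28.

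LSK WT cells are lineage-negative, cKit+ and Sca1+, the marrow fraction that holds stem and multipotent progenitor cells. GMP WT cells are granulocyte-monocyte progenitors, sorted as lineage-negative, cKit+, Sca1-, CD34+ and FcγRII/III+, and both WT groups came from Ncstn flox/flox mice without Cre. GMP NcstnKO cells carried the same sort markers and came from Ncstn flox/flox Mx1-cre+ littermates, in which Cre is driven by the interferon-inducible Mx1 promoter and removes floxed Ncstn, the gene of the γ-secretase subunit nicastrin. All mice, the WT groups included, had received 3 polyIC injections of 20 mcg/g on alternate days. The first was given at 14 days, and marrow was taken 4 weeks after the injections, at an age of 6 weeks. As only the knockouts carried Mx1-cre, the transgene and the loss of Ncstn cannot be told apart. The labels do not say how many mice the 3 arrays of a group came from. LSK array 1 was labelled female and arrays 2 and 3 male, with Xist and Y-linked transcripts to match. The LSK arrays therefore did not all come from 1 mouse. In the GMP groups labels and sex transcripts disagreed for some arrays, as given below. The p-values measure the spread between the arrays of a group, part of which may be technical.

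A cell enters mitosis when CDK1, bound to a cyclin of the A or B type, becomes active, and Aurora and Polo-like kinases then build the spindle. Kinetochores attach chromosomes to spindle microtubules, and the spindle checkpoint holds back CDC20 and the anaphase-promoting complex until every chromosome is attached. The genes of this machinery are transcribed late in the cell cycle, through promoters bound by NF-Y at CCAAT boxes and by the DREAM and MYB-MuvB complexes at a short element called the CHR (cell cycle genes homology region). Most long-term stem cells divide rarely, whereas progenitors such as GMP cycle fast, so the messages of this set are used as a readout of how many cells are dividing.

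Most of the set carried both promoter elements close to the transcript start. Windows from 250 bases before to 50 bases after the annotated start, from RefSeq with coordinates of GRCm38.p6, were at hand for 35 of the 41 genes, and those of Ccna2, Aurkb, Dlgap5, Kif20a, Smc4 and Tpx2 were not analysed here. The stretches below are the 150 bases before the start, read 5′ to 3′ on the strand of the gene, and capitals mark TTTGAA (the CHR) and CCAAT on either strand, so that TTCAAA and ATTGG are the same elements reversed. They were chosen because the expression results turn on Prc1, Mki67, Kif23, Kif11, Nusap1, Mad2l1 and Cdc20, with Cdk1 as the central kinase.
Prc1: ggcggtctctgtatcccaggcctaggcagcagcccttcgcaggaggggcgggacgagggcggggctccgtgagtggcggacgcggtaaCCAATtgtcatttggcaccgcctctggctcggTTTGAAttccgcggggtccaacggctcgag
Mki67: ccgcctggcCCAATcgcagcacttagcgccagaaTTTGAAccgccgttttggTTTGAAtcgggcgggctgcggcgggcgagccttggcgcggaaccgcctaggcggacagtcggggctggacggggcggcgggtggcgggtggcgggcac
Kif23: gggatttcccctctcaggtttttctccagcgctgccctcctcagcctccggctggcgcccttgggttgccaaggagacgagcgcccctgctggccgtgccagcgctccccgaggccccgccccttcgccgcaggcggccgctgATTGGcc
Kif11: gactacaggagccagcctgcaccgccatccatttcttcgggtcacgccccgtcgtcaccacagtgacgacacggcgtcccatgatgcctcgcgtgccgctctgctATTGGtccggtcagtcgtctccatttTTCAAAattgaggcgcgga
Cdk1: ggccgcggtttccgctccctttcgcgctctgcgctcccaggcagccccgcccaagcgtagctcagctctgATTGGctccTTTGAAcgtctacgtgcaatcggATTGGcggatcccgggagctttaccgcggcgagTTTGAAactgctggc
Cdc20: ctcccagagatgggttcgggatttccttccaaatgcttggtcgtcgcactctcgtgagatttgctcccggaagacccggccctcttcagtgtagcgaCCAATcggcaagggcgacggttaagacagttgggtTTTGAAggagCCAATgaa
Nusap1: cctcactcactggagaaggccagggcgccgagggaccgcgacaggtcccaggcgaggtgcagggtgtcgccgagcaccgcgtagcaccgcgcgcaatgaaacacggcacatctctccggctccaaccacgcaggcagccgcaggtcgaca
Mad2l1: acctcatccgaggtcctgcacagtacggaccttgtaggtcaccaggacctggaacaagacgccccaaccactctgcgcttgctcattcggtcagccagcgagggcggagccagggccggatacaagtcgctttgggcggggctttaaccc
The Prc1 stretch (the later of its 2 annotated starts) lies at chr7:80294326-80294475, plus strand, with CCAAT 62 bases and TTTGAA 30 bases before that start. The Mki67 stretch lies at chr7:135716380-135716529, minus strand, and the Kif23 stretch at chr9:61946800-61946949, minus strand, where the TTTGAA begins at base 3 after the start and so falls outside the printed bases. The Kif11 stretch lies at chr19:37376232-37376381, plus strand, the Cdk1 stretch at chr10:69352913-69353062, minus strand, and the Cdc20 stretch at chr4:118437344-118437493, minus strand. Nusap1 (chr2:119618148-119618297, plus strand) and Mad2l1 (chr6:66535071-66535220, plus strand) held neither element in the 300-base window, as did Nuf2 and Birc5, which says only that these letters are not in that window.

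The CHR letters TTTGAA were found in 28 of 35 genes of the set (80.0%), against 17.9% of all 32851 RefSeq windows of the same length and 15.7% of the 14452 measured genes with a window. In 25 of the 35 a match began within 50 bases of the start, against 4.94% of all windows. CCAAT was found in 27 of 35 (77.1%), against 37.4% of all windows, and at least 2 copies in 17 of 35 (48.6%) against 11.7%. Both elements stood together in 24 of 35 (68.6%), against 6.95% of all windows. The E2F letters GCGGGAA, by contrast, were found in 1 of 35, the condensin gene Ncapg, against 4.60% of all windows. Among 35 genes of DNA replication and the G1/S transition, CCAAT was found in 20 (57.1%), GCGGGAA in 16 (45.7%) and TTTGAA in 6 (17.1%). All motifs were searched on both strands, the only overlap between matches in the set was in Ube2c, and a match is a description of the sequence, not a binding site. The plot of motif positions shows the clustering of CHR matches around the start with CCAAT boxes upstream of them.

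**Figure D1:**
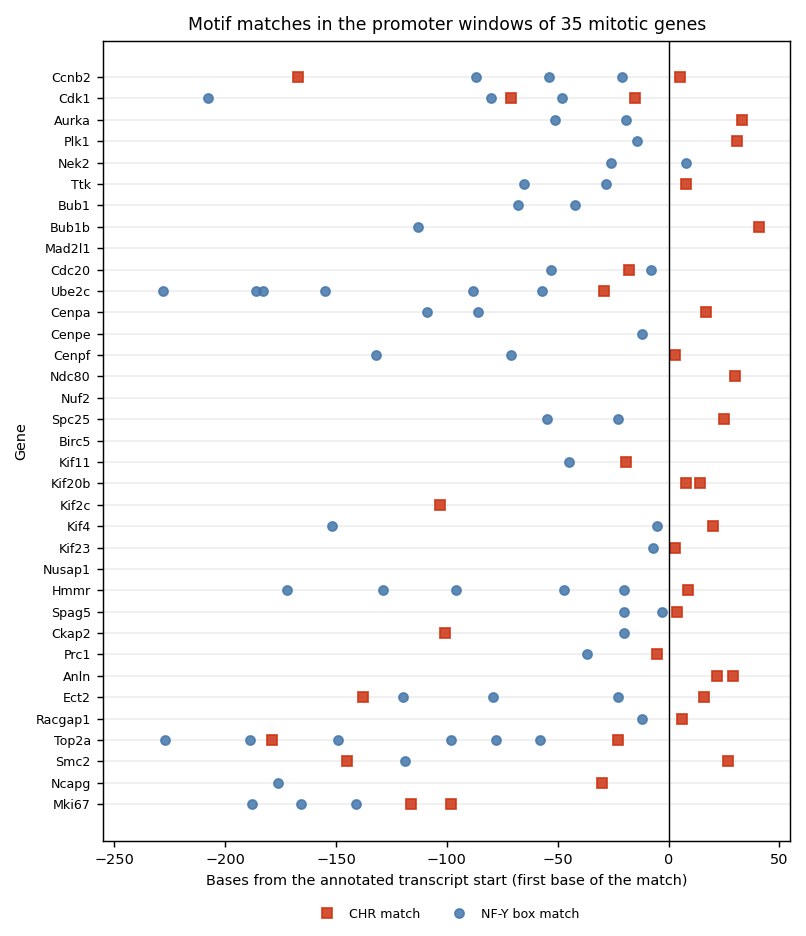
Position of each TTTGAA (CHR, red squares) and CCAAT (NF-Y box, blue circles) match, in bases from the annotated transcript start (line at 0), for the 35 genes of the set with a RefSeq window, where a gene with several starts is drawn at 1 of them. A match within 50 bases of the start is found for TTTGAA in 25 genes, and Nusap1, Mad2l1, Nuf2 and Birc5 have neither.

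Several features of the arrays bear on every comparison. Ncstn read 7.76 to 7.79 (log2 intensity) in the 3 NcstnKO arrays, 9.25 to 9.31 in WT GMP and 8.99 to 9.13 in LSK, although the files do not say whether its probe set lies in the deleted part. Xist and the Y-linked Eif2s3y went against the labelled sex in 4 GMP arrays: WT GMP arrays 2 and 3, labelled female, carried male transcripts, and NcstnKO arrays 2 and 3, labelled male, carried female ones. Results are therefore also given without those 4 arrays of disputed sex, which leaves array 1 of each GMP group against LSK. Array 1 of each GMP group was female by label and by transcript. By transcript all 3 NcstnKO arrays were thus female, while WT GMP arrays 2 and 3 were male. By either reading sex ran partly with genotype between the GMP groups, and their parts cannot be fully told apart. The median intensity of an array was 98.3 to 103 in LSK and 65.4 to 68.6 in the GMP groups, so a comparison with LSK depends on how arrays are scaled. The log2 ratio of the 3′ to the 5′ Actb control probe set, a sign of RNA integrity, was 0.81 to 1.06 in NcstnKO, 0.50 to 0.70 in WT GMP and 0.66 to 0.87 in LSK. Of the markers of the sorted populations, 7 of 8 stem cell genes were called lower in WT GMP than in LSK (all genes 30.5%). Of the primary granule genes, 6 of 7 were called higher (all genes 7.48%). The summed intensity of 11 late neutrophil markers, however, was 75006 to 100830 in LSK and 35379 to 47413 in WT GMP.

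The mitotic set was strongly expressed in all 3 populations. Every one of the 41 genes lay above the background limit of 4.30 to 4.57 on all 9 arrays, with values from 8.45 to 12.8 (log2 intensity). Birc5, which encodes survivin of the chromosomal passenger complex, had the brightest probe set and the smallest range over the 9 arrays. It read 12.60, 12.63 and 12.81 in LSK, 12.72, 12.65 and 12.63 in WT GMP, and 12.60, 12.69 and 12.76 in NcstnKO GMP. These values overlapped among all groups and spanned 0.21 (log2). Nek2, a kinase of centrosome separation, had the dimmest probe set, at 8.49, 8.99 and 8.86 in LSK, 8.90, 8.76 and 8.70 in WT GMP, and 8.45, 8.59 and 8.63 in NcstnKO GMP. Its knockout arrays all lay below the WT GMP arrays, by a mean of 0.23 that did not pass the test (limma adjusted p = 0.333). The widest range was that of Cenpf, a large kinetochore protein, at 1.23 over the 9 arrays. The range within a group had a median over the set of 0.29 in LSK, 0.15 in WT GMP and 0.29 in NcstnKO, and the map of deviations by array shows where it came from.

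**Figure D2:**
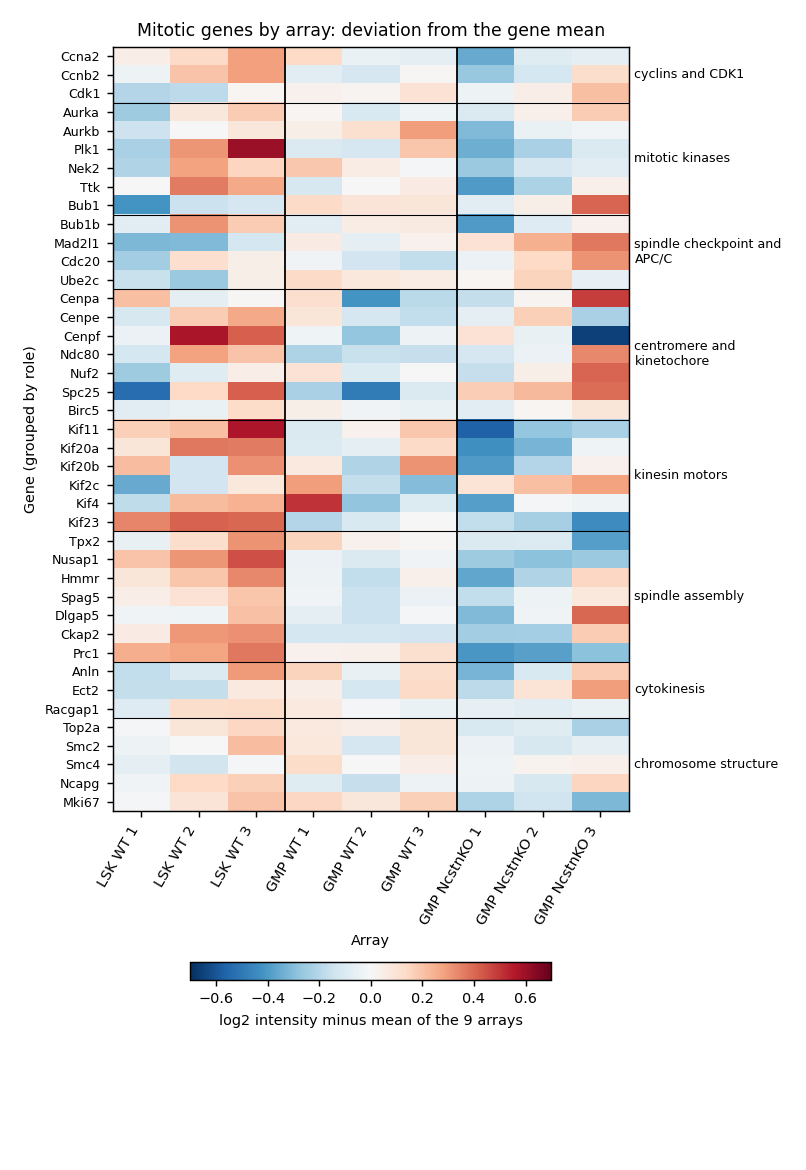
Deviation of each of the 41 mitotic genes (rows, grouped by role) on each of the 9 arrays (columns) from its own mean over the arrays, in log2 intensity (red higher, blue lower). LSK array 1 and NcstnKO array 1 are the lowest of their groups for 36 and 30 genes, and Prc1, Nusap1 and Kif23 are lower on every GMP array than on any LSK array.

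Within each group the mitotic genes tended to be low or high on the same array. LSK array 1 was the lowest of the 3 LSK arrays for 36 of 41 genes (87.8%, against 37.7% of all genes), and LSK array 3 was the highest for 32 of 41 (against 33.0%). In the knockout group, array 1 was the lowest for 30 (73.2%, against 36.2%) and array 3 the highest for 31 (75.6%, against 37.4%). In WT GMP, array 2 was the lowest for 22 (53.7%, against 25.0%) and the highest for 1, while arrays 1 and 3 shared the top for 20 each. The genes of the set shared much of their spread, and a median over them is not a mean of independent measurements. The median deviation of the set on an array reached −0.14 (LSK array 1) and 0.13 (LSK array 3) from the group mean, whereas the same median over all genes was −0.02 and −0.01.

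The first comparison asked whether mitotic transcripts differed in GMP that lack Ncstn. Most did not differ detectably, and a single gene passed the test. Prc1, which cross-links antiparallel microtubules in the central spindle, fell 1.34-fold in the knockout (log2 fold change −0.42, SE 0.08, 95% interval −0.60 to −0.24, limma adjusted p = 0.028, n = 3 arrays a group). No gene of the set rose, 17 of 41 differences were positive and 24 negative, and their median was −0.06, against 0.06 for the whole array. Without adjustment, 2 were higher and 6 lower at p under 0.05, which 24.4% of all genes reached. Over all genes, 2.44% were called higher, 3.26% lower and 5.7% either way, so 1 call of 41 lies below the background. The counts stayed at 0 higher and 1 lower with quantile normalization (all genes 2.22% and 2.32%) and with arrays centred on the 75th percentile (3.23% and 2.83%) or the median (3.94% and 2.36%). In whole RNA from sorted cells, fewer dividing cells and less message per dividing cell cannot be told apart.

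Prc1 read 11.85, 11.87 and 11.96 in LSK, 11.62, 11.63 and 11.70 in WT GMP, and 11.19, 11.21 and 11.31 in NcstnKO GMP. The 3 groups did not overlap, with LSK highest and the knockout lowest. A further Prc1 probe set moved the same way by −0.28 (adjusted p = 0.097 over all probe sets). The Prc1 call held in 10 of 22 alternative analyses and its sign in all 22, with adjusted p from 0.012 to 0.469. Its difference stayed between −0.47 and −0.35 throughout. The call was lost with the compared groups fitted alone, with sex by label or by transcript or the Actb ratio as a covariate, and without the 4 arrays whose sex transcripts go against their labels (−0.44, adjusted p = 0.469), fits in which 0 to 6 of all 18193 genes were called. It was also lost with the replicate number as a block (limma adjusted p = 0.051, 370 of all genes called), although the number did not pair the knockout arrays. The call was lost too without any single GMP array, where 2 to 477 of all genes were called, against 1037 with all arrays. The part of sex and of RNA integrity in it was not tested beyond these fits.

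Mki67, the Ki-67 antigen that coats mitotic chromosomes and is the usual mark of cycling cells, came next. It read 12.69, 12.62 and 12.71 in WT GMP and 12.32, 12.40 and 12.23 in NcstnKO GMP, with LSK at 12.53, 12.63 and 12.74. All 3 knockout arrays lay below all 6 others, while LSK and WT GMP overlapped. The knockout difference was −0.36 (SE 0.09, 95% interval −0.56 to −0.16) and missed the threshold (adjusted p = 0.052), and it was called in 2 of 22 alternatives. Kif11, the plus-end motor that pushes spindle poles apart, read 10.96, 11.09 and 11.25 in WT GMP and 10.50, 10.79 and 10.83 in NcstnKO GMP. The groups did not overlap, but the difference of −0.40 (SE 0.14) did not pass (adjusted p = 0.134), and the other Kif11 probe sets gave −0.13 and −0.26.

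The positive differences with the smallest p belonged to the kinetochore and the checkpoint it controls. Spc25, a subunit of the NDC80 complex that binds microtubules, read 9.57, 9.31 and 9.70 in WT GMP, 9.97, 10.02 and 10.19 in NcstnKO GMP, and 9.27, 9.94 and 10.22 in LSK. The knockout arrays lay above WT GMP and inside the wide range of LSK, and the difference of 0.54 (SE 0.22) did not pass (adjusted p = 0.182). Mad2l1, the checkpoint protein MAD2 that binds CDC20, read 11.61, 11.49 and 11.58 in WT GMP and 11.65, 11.81 and 11.93 in NcstnKO GMP. Every knockout array was above every WT GMP array, by a mean of 0.23 (SE 0.10, adjusted p = 0.193) that was 0.042 without the 4 arrays of disputed sex. Cdc20, the activator of the anaphase-promoting complex, read 11.48, 11.37 and 11.33 in WT GMP and 11.47, 11.64 and 11.82 in NcstnKO GMP. These overlapped, with a difference of 0.25 (SE 0.13, adjusted p = 0.264) that turned to −0.017 without those 4 arrays. The panels of single genes show these values.

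**Figure D3:**
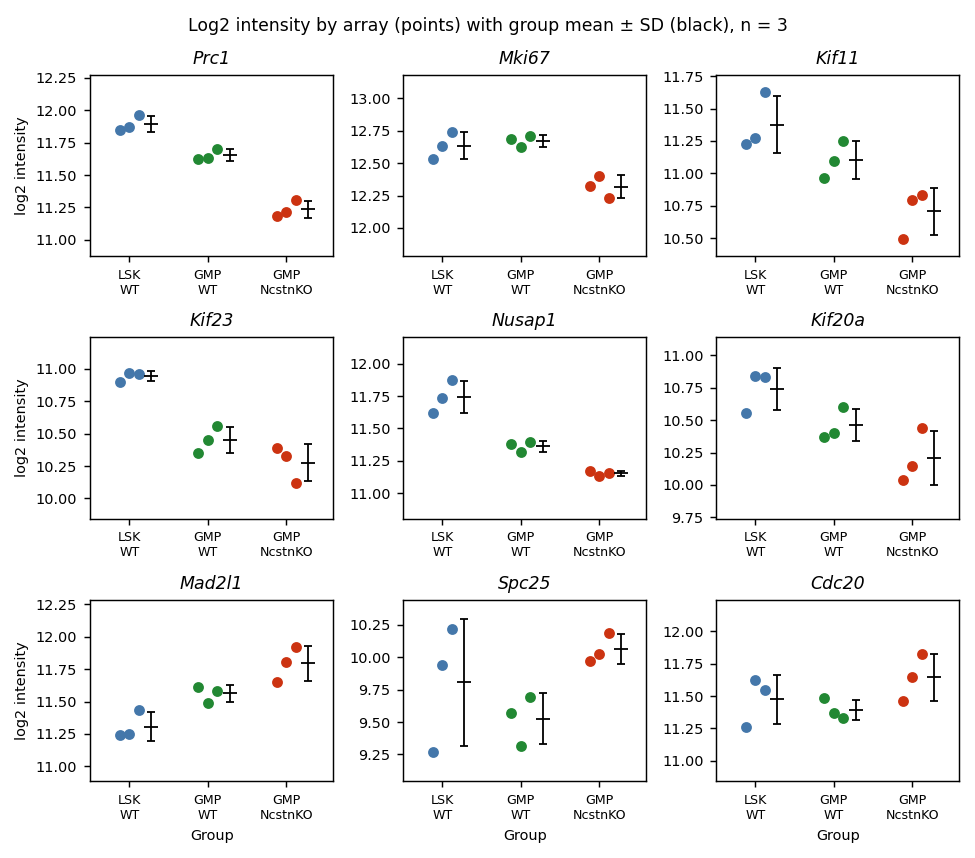
Log2 intensity of 9 mitotic genes on each array (points, arrays 1 to 3 from left to right) with the group mean ± SD in black (n = 3), each panel on its own axis. The Prc1 groups do not overlap, the Mki67 knockout arrays lie below all others, and Mad2l1 is lowest in LSK and highest in the knockout.

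By role, every knockout difference was under 1.5-fold. Of 6 kinesins 5 were lower on average, with a median of −0.22 and a range from −0.40 (Kif11) to 0.25 (Kif2c, a microtubule depolymerase). Of 7 centromere and kinetochore genes 6 were higher, with a median of 0.09, among them Ndc80 at 0.24 (adjusted p = 0.351) and the centromeric histone Cenpa at 0.28 (adjusted p = 0.413). None of these 13 genes passed the test (limma), and 1 kinesin and 1 kinetochore gene, Kif11 and Spc25, did so unadjusted. Over all genes the median was 0.06, and 24.4% reached an unadjusted p under 0.05. Of 6 mitotic kinases 4 were lower, and Aurkb, the kinase of the chromosomal passenger complex, was at −0.27 (adjusted p = 0.186) with no overlap. Of the cyclins and their kinase none was called (limma), 0 of 3 also at an unadjusted p under 0.05: Cdk1 stood at 0.02 (95% interval −0.20 to 0.25), Ccnb2 at −0.03 (−0.31 to 0.26) and Ccna2 at −0.18 (−0.43 to 0.08). Among 5 genes of chromosome structure, Top2a, which untangles DNA, was at −0.21 (adjusted p = 0.160) and the condensin subunits Smc2, Smc4 and Ncapg lay between −0.09 and 0.10. The 3 cytokinesis genes Anln, Ect2 and Racgap1 lay between −0.16 and 0.05.

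Groups of arrays did not overlap for 3 genes that were higher (Ndc80, Spc25 and Mad2l1) and 10 that were lower in the knockout, which is 7.32% and 24.4% of the set against 18.5% and 13.4% of all genes (31.9% either way). All 41 fold changes were under 1.5 either way. The 95% interval of the difference lay within 1.5-fold either way for 32 genes and within 2-fold for 40, so these arrays could still hide moderate changes for the others. Without the 4 arrays of disputed sex the median was −0.20. That value compares 1 array with 1, with the spread taken from the LSK arrays alone, and the test then called 1 of all 18193 genes and so says little of the set. Knockout array 1, which it rests on, was the lowest of its group for 30 genes.

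**Figure D4:**
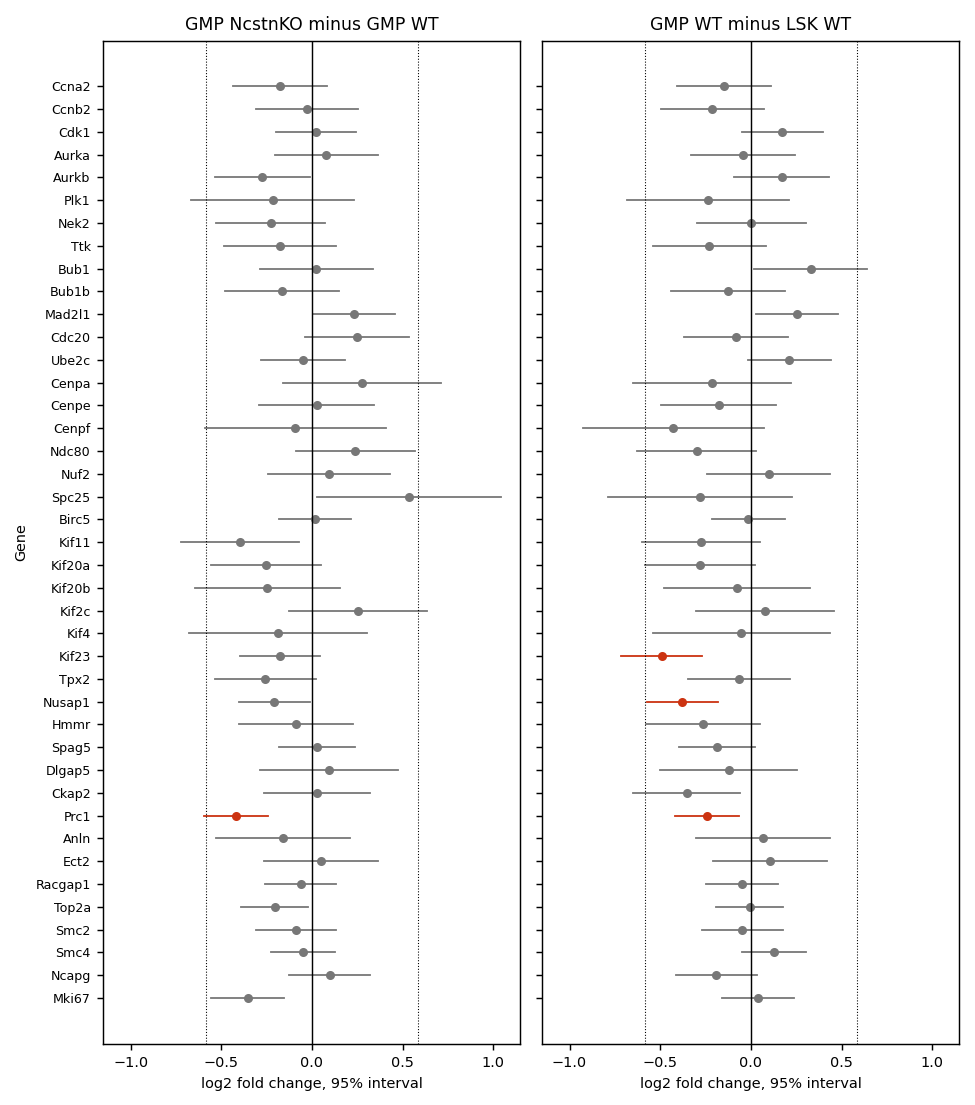
Log2 fold change (points) with 95% interval (lines) of each mitotic gene for NcstnKO GMP minus WT GMP (left) and WT GMP minus LSK (right), with limma calls at an adjusted p under 0.05 in red and dotted lines at 1.5-fold either way. The points lie between −0.42 and 0.54 on the left and between −0.49 and 0.33 on the right, and the calls are Prc1 on the left and Kif23, Nusap1 and Prc1 on the right.

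Markers of other cells in the GMP gate moved between the same groups. The summed intensity of 13 erythroid markers was 13790 to 18575 in NcstnKO and 24271 to 39659 in WT GMP, with 6 of 13 called lower and Hba-a1 at background in both. Of 9 megakaryocyte markers 3 were lower (sum 4536 to 5995 against 5850 to 7740, Gp6 at background in both), and of 8 monocyte and macrophage markers 3 were lower (sum 9085 to 11387 against 9488 to 13225). Of 11 late neutrophil markers 1 was higher, with a sum of 51037 to 59022 against 35379 to 47413. None of 8 stem cell, 7 primary granule, 7 mast, basophil and eosinophil, or 9 lymphoid and B cell markers was called (limma), with 1, 0, 1 and 1 at an unadjusted p under 0.05. Over all genes 2.44% were called higher and 3.26% lower between these groups, and 24.4% reached an unadjusted p under 0.05. The part of these cells in the values of the mitotic genes was not tested.

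The second comparison asked how mitotic transcripts differ between the stem and progenitor fraction and committed GMP. As deposited, 3 genes fell in WT GMP and none rose. Kif23, the motor subunit of centralspindlin, fell 1.41-fold (−0.49, SE 0.10, adjusted p = 0.0049), the microtubule-bundling protein Nusap1 fell 1.30-fold (−0.38, SE 0.09, adjusted p = 0.0088), and Prc1 fell 1.18-fold (−0.24, SE 0.08, adjusted p = 0.039). Over all genes 7.48% were called higher, 30.5% lower and 38.0% either way, beside 7.32% of the mitotic set. Of 41 differences 12 were positive and 29 negative, with a median of −0.08 against −0.18 over all genes, and 2 were higher and 4 lower at an unadjusted p under 0.05 (48.0% of all genes either way). The calls of Kif23, Nusap1 and Prc1 held in the same direction in 19, 18 and 5 of 22 alternatives, so that of Prc1 was lost in most (adjusted p up to 0.829). The replicate numbers paired these arrays, and the same 0 higher and 3 lower were counted with the number as a block.

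Kif23 read 10.90, 10.97 and 10.96 in LSK, 10.35, 10.45 and 10.56 in WT GMP, and 10.39, 10.33 and 10.12 in NcstnKO GMP. All LSK arrays lay above all GMP arrays, and the GMP groups overlapped. A dimmer Kif23 probe set moved further, by −0.68 (adjusted p = 0.0025 over all probe sets). Nusap1 read 11.62, 11.73 and 11.87 in LSK, 11.38, 11.32 and 11.40 in WT GMP, and 11.17, 11.14 and 11.16 in NcstnKO GMP. Its 3 groups did not overlap, in the same order as for Prc1. Nusap1 has 2 probe sets, of which the brighter is given here, and the size of its difference depended on the analysis. Over 22 alternatives it ran from −0.90 to 0.21 between WT GMP and LSK, and from −1.40 to 0.05 between knockout GMP and LSK. Leaving out single arrays gave −0.44 to −0.31 for WT GMP against LSK. Racgap1, the partner of Kif23 in centralspindlin, differed between WT GMP and LSK by −0.05 (95% interval −0.25 to 0.15). Ect2, the exchange factor that Racgap1 recruits to drive the contractile ring, stood at 0.11 (adjusted p = 0.568).

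Over all genes the median difference of WT GMP from LSK was −0.18 and 30.5% were called lower, so falls by role lie near that background. All 7 spindle assembly genes were lower on average in WT GMP, with a median of −0.24, and Nusap1 and Prc1 were called. Ckap2, a further microtubule protein of this group, was at −0.35 (adjusted p = 0.059). Of 7 kinetochore genes 6 were lower and of 6 kinesins 5, with Kif23 the one call. The largest positive differences were those of Bub1, a checkpoint kinase, at 0.33 (adjusted p = 0.088), Mad2l1 at 0.26 (adjusted p = 0.072), Ube2c, the ubiquitin-conjugating enzyme of the anaphase-promoting complex, at 0.21 (adjusted p = 0.131), and Cdk1 at 0.17 (adjusted p = 0.192). Groups did not overlap for 5 genes higher and 8 lower, which is 12.2% and 19.5% of the set against 13.2% and 41.5% of all genes (54.6% either way). The 95% interval lay within 1.5-fold for 31 genes and within 2-fold for all 41.

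The direction of this comparison followed the scaling of the arrays. With quantile normalization 4 genes were called higher and 2 lower (all genes 19.7% and 15.6%), with arrays centred on the 75th percentile 8 and 0 (24.6% and 16.6%), and centred on the median 29 and 0 (56.0% and 9.82%). Centred on the median, Kif23, Nusap1 and Prc1 turned to 0.094, 0.21 and 0.34. The median over all genes moved from −0.18 to 0.05, 0.09 and 0.41 over these scalings. Relative to it, the median of the mitotic set was 0.10 as deposited and −0.04 with quantile normalization. Both centrings move every gene of a comparison by the same amount, so they keep the 0.10 by construction. Without the 4 arrays of disputed sex, which leaves 1 WT GMP array, no gene of the set and 2383 of all genes were called (limma), and Kif23 stood at −0.59 (adjusted p = 0.055). Without LSK array 1, the low array for 36 genes, 5 were called lower.

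**Figure D5:**
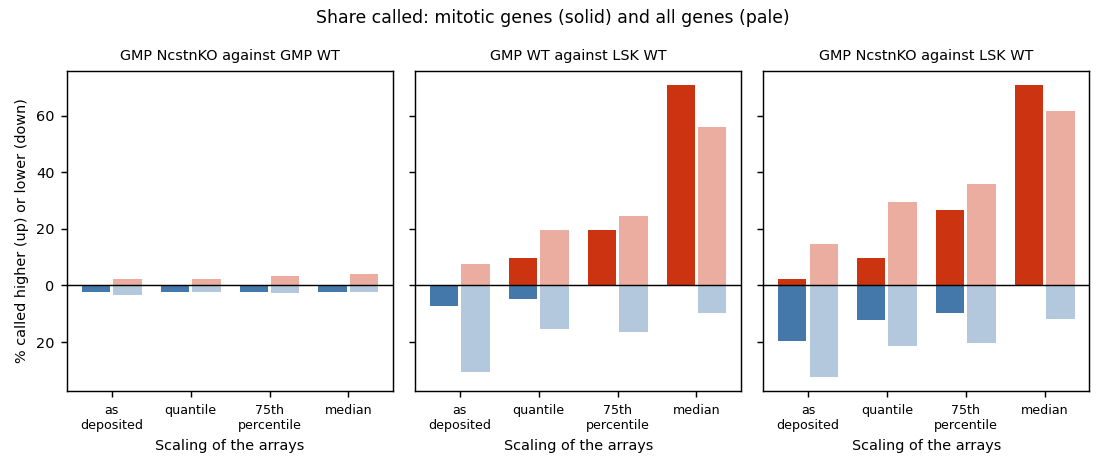
Percentage of the 41 mitotic genes (solid bars) and of all 18193 genes (pale bars) called higher (upward, red) or lower (downward, blue) by limma in each comparison, under 4 scalings of the arrays. The knockout comparison of GMP keeps 0 higher and 1 lower under each, while in the comparisons with LSK the bars turn from mostly lower as deposited to mostly higher when centred on the median.

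Knockout GMP were also set against LSK, a comparison that shares its arrays with both others, so its values are given beside theirs and not as separate evidence. In it 8 genes fell and 1 rose. Mad2l1 was higher by 0.49 (SE 0.10, adjusted p = 0.0039), with LSK arrays at 11.24, 11.25 and 11.43, all below both GMP groups. The falls were Kif11 at −0.67, Kif23 at −0.67, Prc1 at −0.66, Nusap1 at −0.59, Kif20a at −0.54, Ttk at −0.40, Ccna2 at −0.32 and Mki67 at −0.32, with adjusted p from 0.00025 (Prc1) to 0.044 (Ccna2). The calls of Ttk and Ccna2 held in the same direction in 9 and 6 of 22 alternatives, and those of the other 7 genes in 16 (Mki67) to 21 (Prc1 and Mad2l1). Kif20a is a kinesin of the cleavage furrow, Ttk the kinase MPS1 that starts the checkpoint, and Ccna2 cyclin A2. Over all genes 14.6% were called higher, 32.3% lower and 46.8% either way, and the median of the set was −0.15 against −0.12. At an unadjusted p under 0.05, 2 were higher and 14 lower (54.2% of all genes either way).

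Set side by side, the same genes gave the following. Mki67 differed by −0.36 between the GMP groups and by 0.04 between WT GMP and LSK. Kif11 differed by −0.40 and −0.27, Prc1 by −0.42 and −0.24, and Nusap1 by −0.21 and −0.38. Groups did not overlap between the knockout and LSK for 3 genes higher and 10 lower, against 19.2% and 37.2% of all genes (56.4% either way). With quantile normalization 4 were called higher and 5 lower (all genes 29.5% and 21.2%), centred on the 75th percentile 11 and 4 (35.9% and 20.2%), and centred on the median 29 and 0 (61.7% and 11.9%). Under the last, Mki67 and Ccna2 turned to 0.32 and 0.31 and Nusap1, Kif20a and Ttk to 0.05, 0.10 and 0.23. Without the 4 arrays of disputed sex 0 were called higher and 1 lower, and the count called lower was 13 without LSK array 1 and 5 without LSK array 3.

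In a wider list of 107 measured mitotic genes outside the set, 2 rose and none fell in the knockout, which is 1.87% beside 5.7% of all genes (2.44% higher and 3.26% lower). At an unadjusted p under 0.05 (limma) 11 were higher and 16 lower, which is 25.2% beside 24.4% of all genes, and the median was −0.01. Spc24, which pairs with Spc25 in the NDC80 complex, read 11.41, 11.20 and 11.18 in WT GMP and 11.80, 11.64 and 11.81 in NcstnKO GMP. It rose by 0.48 (SE 0.11, adjusted p = 0.043, and 0.050 with quantile normalization), beside 0.54 for Spc25, 0.24 for Ndc80 and 0.09 for Nuf2, the other subunits. Depdc1b, which encodes a DEP domain protein, rose by 0.82 (SE 0.15, adjusted p = 0.027). Neither the Spc24 nor the Depdc1b call held with label sex, transcript sex or the Actb ratio as a covariate, or without WT GMP array 3. Those fits called 0 of all 18193 genes higher. Between WT GMP and LSK 3 of the 107 were higher and 10 lower as deposited (all genes 7.48% and 30.5%), and 85 and 0 when centred on the median (56.0% and 9.82%). Psrc1, a spindle protein, fell by 0.76 (adjusted p = 0.0039), and its difference was −0.17 (adjusted p = 0.324) when centred on the median.

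Of 21 measured regulators of mitotic transcription, none rose and 1 fell in the knockout (4.76%, beside 5.7% of all genes), with 0 and 3 at an unadjusted p under 0.05 (14.3%, beside 24.4%). Nfya, the regulatory subunit of NF-Y, a factor known to bind CCAAT boxes, fell by 0.41 (SE 0.09, adjusted p = 0.043), and missed the threshold under quantile normalization and both centrings (adjusted p 0.053 to 0.069). Foxm1, an activator of mitotic genes, was lower in knockout GMP than in LSK by 0.87 (adjusted p = 0.00067), at 8.65, 9.02 and 8.95 in LSK, 8.17, 8.42 and 8.52 in WT GMP, and 7.98, 8.01 and 8.02 in NcstnKO GMP. Its LSK arrays lay above all GMP arrays, as for 41.5% of all genes with WT GMP and 37.2% with the knockout. Its knockout arrays lay below all WT GMP arrays, as for 13.4% of all genes, and Foxm1 was not called between the GMP groups. Between WT GMP and LSK 1 regulator was higher and 6 lower (all genes 7.48% and 30.5%). These counts became 3 and 3 with quantile normalization, 5 and 2 centred on the 75th percentile, and 12 and 1 centred on the median. The smallest p (limma) was that of E2f5, which fell by 1.17 (adjusted p = 0.0020). E2f2, an activating E2F, fell by 1.08 (adjusted p = 0.0054), Lin37 by 0.41 (adjusted p = 0.0092) and Rbl2 by 0.56 (adjusted p = 0.013). Centred on the median, the difference between knockout GMP and LSK was −0.24 for Foxm1 (limma adjusted p = 0.116). That between WT GMP and LSK was −0.49 for E2f2 (adjusted p = 0.081). The lowest of the list between WT GMP and LSK was then −0.59 (E2f5), while Lin37 and Rbl2 turned positive.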

How the data were processed

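Expression was measured on 9 arrays of amplified RNA (5 ng input) from sorted mouse marrow cells. The values the authors deposited are linear intensity values per probe set. The submitters' processing notes name RMA, with no version, and a joint normalization of all arrays is not given in the sources used here. Arrays have no sequencing depth, and their number limits the precision.

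From these, log2 was taken. Of 45101 probe sets, 34945 carry 1 gene symbol in GEO's platform annotation, 932 several and 9160 none, and 64 are control sets. The brightest set of each gene over all arrays gave 18193 genes. R 4.3.3 with limma 3.58.1 (lmFit, then eBayes, tested 2-sided) fitted the 3 group means over all 9 arrays. Calls were made at an adjusted p under 0.05, by Benjamini-Hochberg over all genes. The fit was checked on simulated data. The background limit is the 95th percentile of 27 unspiked bacterial control sets.

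The genes of the mitotic set, the other lists and the tests were chosen with earlier results of these data known, so patterns already known from them are not independent support. All genes of the set may be named. Values on single arrays are given in the text for genes of the set called between the GMP groups or between WT GMP and LSK. They are also given for the 3 smallest unadjusted p in each direction of the GMP comparison, and for the brightest and the dimmest gene. Those of Kif11 and Cdc20 are given for the GMP groups alone. Kif20a, Ttk and Ccna2, called only in NcstnKO against LSK, are given by their differences. Of other lists at most 4 called genes a comparison are named, some by their differences alone. Other genes with values (Racgap1, Ect2 and the rest of each role) belong to the set.

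The titles number the arrays of a group 1 to 3, with an added letter for LSK. Across genes, deviations from the group mean correlated at 0.22, 0.24 and 0.29 between WT GMP and LSK arrays of the same number, each best with its own. These were treated as paired on the strength of the values, since no label states it. Knockout arrays were not paired with either group (−0.09 to 0.04). Alternatives were 3 other scalings, the mean of probe sets or every probe set alone, leaving out the dimmest 40% of genes, fits with the compared groups alone, with a replicate block, with sex or the Actb ratio as covariates or with trend and robust moderation, and leaving out arrays.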

Additional observations from a re-analysis of the deposited data

How the results depend on the processing

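In NcstnKO against WT GMP no gene of the mitotic set was called higher under any alternative run. The count called lower, 1, became 2 without the dimmest 40% of genes and with trend and robust moderation, and 0 with the compared groups alone, with label sex, transcript sex or the Actb ratio as a covariate, and without the 4 arrays of disputed sex (fits that called 0 to 6 of all genes), where the median was −0.20 and Cdc20 reversed to −0.017. Leaving out single arrays gave 0 to 1 called lower and medians from −0.10 to −0.03. In WT GMP against LSK the counts higher and lower, 0 and 3, became 4 higher with quantile normalization, 8 and 0 centred on the 75th percentile (median 0.18), 29 and 0 centred on the median (median 0.50), 1 higher with the compared groups alone and with trend and robust moderation, 2 and 1 with label sex, and 0 lower without the 4 arrays. Leaving out single arrays gave 0 to 1 higher, 2 to 5 lower and medians from −0.17 to −0.05. In NcstnKO GMP against LSK the 1 higher and 8 lower became 4 and 5 with quantile normalization (median 0.042), 11 and 4 centred on the 75th percentile (median 0.14), 29 and 0 centred on the median (median 0.49), 2 higher with the mean of all probe sets, label sex, or trend and robust moderation, 4 lower with transcript sex, and 0 and 1 without the 4 arrays. Leaving out single arrays gave 1 to 2 higher, 5 to 13 lower (13 without LSK array 1, 5 without LSK array 3) and medians from −0.22 to −0.07.

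Centring on the median reversed, in WT GMP against LSK, Kif23 (0.094), Nusap1 (0.21), Prc1 (0.34, and 0.024 centred on the 75th percentile), Anapc4 (0.19), Anapc2 (0.22), Ensa (0.087), Lin37 (0.17), Rbl2 (0.026), Pole (0.10) and Chaf1b (0.17), and, in NcstnKO GMP against LSK, Nusap1 (0.05), Kif20a (0.10), Mki67 (0.32), Ttk (0.23) and Ccna2 (0.31). Centring sets the median over probe sets equal between arrays whose deposited medians differ, and the cause of the other changes was not tested. With the replicate block, the GMP comparison counted 0 lower in place of 1 (Prc1, adjusted p = 0.051), WT GMP against LSK 0 and 3, and NcstnKO GMP against LSK 1 and 10. The block changed no call of WT GMP against LSK among the genes named.

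With 3 arrays a group, a change of 1.5-fold lay outside the interval of 32 of 41 genes in the GMP comparison and 31 in WT GMP against LSK. A single probe set stands for each gene, and probe sets of a gene did not always move alike.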

Other observations

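Genes of DNA replication and the G1/S transition, the phase before the mitotic one, gave no call in NcstnKO against WT GMP (0 of 42 with limma, with 5 higher and 1 lower at an unadjusted p under 0.05, median 0.01). Between WT GMP and LSK their median was 0.13, against −0.08 for the mitotic set and −0.18 over all genes, with 3 called higher and 2 lower (all genes 7.48% and 30.5%). Cdc45, part of the replicative helicase, read 10.07, 10.38 and 10.40 in LSK and 10.68, 10.77 and 10.70 in WT GMP, a rise of 0.43 (adjusted p = 0.019). Pole, the catalytic subunit of DNA polymerase epsilon, fell by 0.49 (adjusted p = 0.021), and this turned to 0.10 with arrays centred on the median. The counts became 10 and 0 with quantile normalization, 30 and 0 centred on the 75th percentile and 39 and 0 centred on the median. Relative to all genes, the median of the G1/S genes stood at 0.30 as deposited and 0.12 with quantile normalization, and that of the mitotic set at 0.10 and −0.04. The difference between the lists was not tested. In NcstnKO GMP against LSK, which shares the LSK arrays, 12 G1/S genes were called higher and 2 lower as deposited (all genes 14.6% and 32.3%). The counts became 16 and 1 with quantile normalization, 32 and 1 centred on the 75th percentile and 38 and 0 centred on the median. Orc1, a subunit of the origin recognition complex, was higher by 0.90 (adjusted p = 0.0016).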
